A study of Mus musculus with 2 samples.

Results

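Guidance receptors and their ligands were examined in the embryonic mouse cerebral cortex at E16.5. The genes were the Slit ligands *Slit1*, *Slit2* and *Slit3*, the Robo receptors *Robo1*, *Robo2* and *Robo3*, and the netrin receptors *Dcc*, *Unc5b*, *Unc5c* and *Unc5d*. They were matched by symbol, and these 10 genes were found among the 32285 genes listed in each library. All 10 were followed through 15 classes of cells named from marker genes, none of which was a Slit, Robo or netrin receptor gene. On mm10 (RefSeq annotation of GRCm38.p6) the ligand genes lie at chr19:41597824-41747275, chr5:47981291-48307735 and chr11:35121456-35708507. The Robo genes lie at chr16:72027518-73047491, chr16:73891976-75447443 and chr9:37416045-37433436, so that *Robo1* and *Robo2* are neighbours on chromosome 16. *Dcc* lies at chr18:71253613-72351228, *Unc5b* at chr10:60762594-60831581, *Unc5c* at chr3:141465564-141834924 and *Unc5d* at chr8:28646717-29219671.

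Single-cell RNA sequencing with the 10x Genomics 3' chemistry was carried out on the papain-dissociated cerebral cortex of WT embryos, which were control animals of the *Eomes-Cre* line named EomesDot in the labels. Both libraries belonged to the WT group, and no mutant, treated or differently aged sample was part of the data described here. Every comparison was made between classes of cells that came from both libraries. How many embryos went into a library is not stated in the labels. The p-values measure only how far differences between classes varied from library to library, which may be technical. That spread was estimated over all classes together. Replicate 1 held 46398156 unique molecular identifiers (UMIs, each marking 1 captured RNA molecule) in 9049 barcodes, and replicate 2 held 64324236 UMIs in 13556 barcodes. Of these, 5966 and 10247 cells had 1500 to 60000 UMIs and under 10% mitochondrial UMIs, with a median of 5706 and 4938 UMIs. Between the libraries, 40 barcode sequences were shared, 21 of them among the kept cells.

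Slit proteins are secreted ligands that bind Robo receptors on growing axons and migrating neurons, and in most settings they repel them. *Robo3* codes for a divergent family member best known from axons that cross the midline. DCC is the receptor through which netrin-1 attracts axons, whereas UNC5 receptors mediate repulsion by netrins, alone or together with DCC, and UNC5 proteins also bind the FLRT adhesion proteins. In the developing cortex, radial glia divide at the ventricle and give rise to intermediate progenitor cells (IPCs), whose daughters migrate outwards to the cortical layers. GABAergic interneurons arrive from the medial and caudal ganglionic eminences (MGE and CGE) in the ventral forebrain.

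Cells were placed into classes by how many of 6 marker genes of a list they held, and every class is called by its list with the suffix "-like". The gate named 3959 cells (66.4% of those kept) in replicate 1 and 6443 cells (62.9%) in replicate 2. The excitatory side comprised radial glia-like (240 and 402 cells in replicates 1 and 2), IPC-like (389 and 579), migrating-neuron-like (268 and 467), upper-layer-like (1146 and 1994), layer-5-like (99 and 185) and layer-6-like cells (144 and 137). The GABAergic side comprised MGE-interneuron-like (613 and 831), CGE-interneuron-like (248 and 367), striatal-neuron-like (357 and 537) and cycling GABAergic-cell-like cells (202 and 383). The remaining classes were endothelial-, mural-, fibroblast-, microglia- and erythroid-like cells, with between 31 and 131 cells per library. The leading genes of the microglia-like class included *Mrc1* and *Pf4*, which mark macrophages at the brain's borders. The labels give the tissue as cerebral cortex. In the striatal-neuron-like class, *Drd2* and *Rxrg*, which were not in its marker list, stood among the leading genes beside the markers *Isl1*, *Zfp503* and *Rarb* that had named it. No subplate-like cell was found.

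The level of a gene in a class was its CPM, its UMIs scaled to a fixed total of UMIs over all genes, from the UMIs of all cells of the class summed within each library. Values are given for replicate 1 and then replicate 2. Levels are compared between classes of 1 gene and not between genes, and ranks are among the 15 classes with 20 or more cells in both libraries. The levels in erythroid-like and microglia-like cells, which are not neurons, are given for reference and were not 0. Erythroid-like cells held 429 and 276 CPM of *Robo2*, 141 and 349 CPM of *Dcc*, 125 and 165 CPM of *Robo1* and 109 and 96.7 CPM of *Unc5d*. Per cell this came to 2.06 and 1.52 UMIs of *Robo2*, against 23.7 and 16.7 UMIs in upper-layer-like cells. Globin genes took most UMIs of the erythroid-like cells (mean level of *Hbb-bs* 351250 CPM), which lowers the CPM and the thinned shares of all other genes there. The reference values also moved with the cells included. Of the erythroid-like cells, 72.3% and 70.3% held only the minimum number of markers. When 1 more marker was required, the mean *Robo2* level of erythroid-like cells was 27.4 CPM. Without the cells of highest doublet score, which were 35.5% and 41.6% of the microglia-like cells, the mean of microglia-like cells went from 294 to 47.2 CPM. With every cell thinned to 1500 UMIs, the share of erythroid-like cells with a UMI was 10.8% (4.44 to 20.9) and 9.9% (4.85 to 17.5) for *Robo2*, 6.15% (1.7 to 15) and 12.9% (7.04 to 21) for *Dcc*, 7.69% (2.54 to 17) and 8.91% (4.16 to 16.2) for *Robo1* and 3.08% (0.375 to 10.7) and 3.96% (1.09 to 9.83) for *Unc5d*, with 95% exact (Clopper-Pearson) intervals in parentheses. The intervals cover counting error only. These values are therefore no fixed background, and no level or share is called absent by them.

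**Figure D1:**
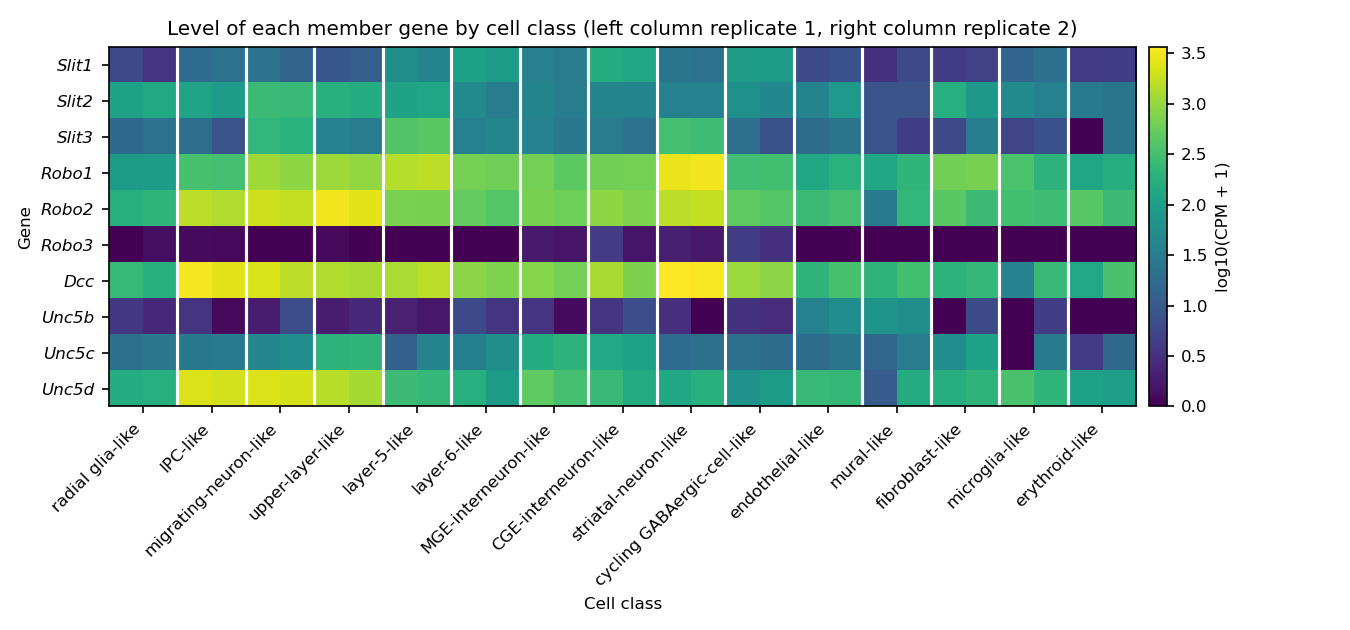
Heat map of the level of each of the 10 genes (rows) in 15 cell classes (columns), as log10(CPM + 1). Each class has a left column for replicate 1 and a right column for replicate 2, and the paired columns look alike for the abundant genes. *Dcc*, *Robo1* and *Robo2* are bright in most neuronal classes, *Unc5d* in IPC-like, migrating-neuron-like and upper-layer-like cells, *Unc5b* in mural-like and endothelial-like cells, and *Robo3* is dark throughout.

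The classes were compared with edgeR's quasi-likelihood test on the summed counts, with the library as a block and p-values adjusted by the Benjamini-Hochberg method over 15391 genes. *Robo3* had too few UMIs to be tested, so 9 of the 10 genes were. The call rate of all genes differed widely between comparisons, and the counts of receptors and ligands are given beside it. From radial glia-like to IPC-like cells, 5 of the 9 genes passed the test, all of them higher, where 37.6% of all genes tested passed in either direction. From IPC-like to migrating-neuron-like cells, 4 of 9 passed, all higher (24.3% of all genes). From migrating-neuron-like to upper-layer-like cells, 5 of 9 passed, 1 higher and 4 lower (6.71% of all genes). Between the layers, 7 of 9 differed between upper-layer-like and layer-6-like cells (16.8% of all genes) and 6 of 9 between layer-5-like and layer-6-like cells (6.37%). MGE-interneuron-like cells differed from the mean of upper-layer-, layer-5- and layer-6-like cells (the layer mean) in 6 of 9 genes, 1 higher and 5 lower (28.2% of all genes), and from CGE-interneuron-like cells in 2 of 9 (6.33%). For each of the 6 genes called against the layer mean, at least 1 layer class overlapped with MGE-interneuron-like cells or lay on the other side. Striatal-neuron-like cells differed from MGE-interneuron-like cells in 6 of 9, 4 higher and 2 lower (11.9% of all genes). All 41 called differences had the same direction in both libraries. The median log2 fold change of the 9 genes ranged from -0.63 in the comparisons of upper-layer-like with migrating-neuron-like cells and of MGE-interneuron-like cells with the layers to 1.94 from radial glia-like to IPC-like cells, whereas the median over all genes lay between -0.02 and 0.07 in the 8 comparisons.

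**Figure D2:**
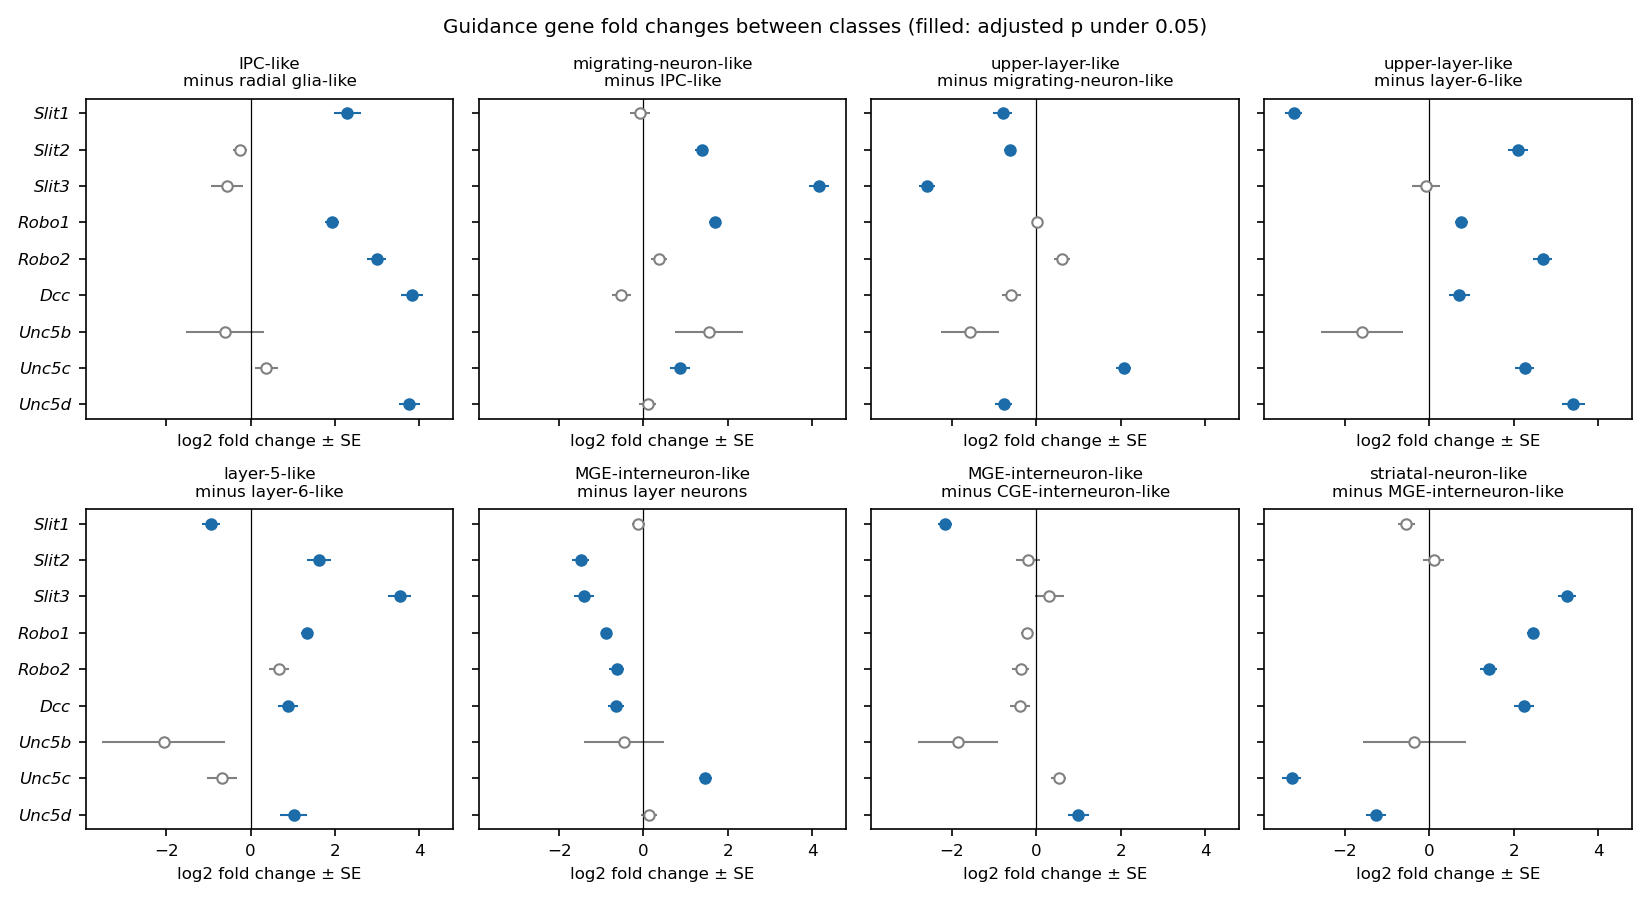
Log2 fold change (x axis, error bars are SE) of the 9 tested genes (y axis) in each of the 8 comparisons between classes. Filled points passed an adjusted p of 0.05 and open points did not. All filled points of the IPC-like against radial glia-like panel lie to the right of 0, and the *Unc5b* bars are the widest in every panel.

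Among the netrin receptors, *Unc5d* was highest in IPC-like, migrating-neuron-like and upper-layer-like cells among the 15 classes. Its transcripts are long known as a label of the embryonic subventricular zone. *Unc5d* reached 161 and 176 CPM in radial glia-like cells, 2328 and 2093 CPM in IPC-like cells, 2393 and 2160.1 CPM in migrating-neuron-like cells and 1489 and 1186 CPM in upper-layer-like cells. The radial glia-like values lay between those of erythroid-like (109 and 96.7 CPM) and microglia-like cells (342 and 213 CPM), and all values of the next 3 classes lay above every value of the remaining 12 classes. The log2 fold change from radial glia-like to IPC-like cells was 3.76 ± 0.24 (SE, adjusted p = 1.41e-14). IPC-like cells also held the migrating-neuron markers, at 2229 and 2141 CPM for the whole list, against 2706 and 2698 CPM in migrating-neuron-like cells. Their own IPC list stood at 1519 and 1528 CPM. Whether progenitors or newborn neurons within the IPC-like class held the transcripts of the 10 genes was not tested. The difference between IPC-like and migrating-neuron-like cells did not pass (0.10, 95% interval -0.35 to 0.55, adjusted p = 0.796), except in the fit with only the compared classes (0.11, adjusted p = 0.0147). Upper-layer-like cells were lower than migrating-neuron-like cells, at -0.78 ± 0.21 (SE, adjusted p = 0.0149), a call that was lost with DESeq2 (adjusted p = 0.58) and without the library as a block (adjusted p = 0.127). Layer-5-like cells held 277 and 233 CPM and layer-6-like cells 173 and 86.1 CPM, and the log2 fold change between upper-layer-like and layer-6-like cells was 3.41 ± 0.28 (SE, adjusted p = 7.55e-12). That between layer-5-like and layer-6-like cells was 1.02 ± 0.31 (SE, adjusted p = 0.0423), a call that 5 of the 8 alternative fits did not make. A UMI of *Unc5d* was found in 73.8% (69.1 to 78.1) and 70.8% (66.9 to 74.5) of IPC-like cells, 74.3% (68.6 to 79.4) and 66.8% (62.3 to 71.1) of migrating-neuron-like cells and 54% (51.1 to 56.9) and 49.8% (47.6 to 52.1) of upper-layer-like cells after thinning, and in 10.4% (5.95 to 16.6) and 6.57% (3.05 to 12.1) of layer-6-like and 17.5% (12.9 to 22.9) and 19.2% (15.4 to 23.3) of radial glia-like cells. Without thinning the shares were 84.8% and 83.6%, 83.2% and 78.2%, 72.5% and 63.2%, 13.9% and 13.1% and 37.5% and 35.1%. On the GABAergic side, MGE-interneuron-like cells held 468 and 327 CPM and CGE-interneuron-like cells 248 and 156 CPM. The difference of 0.99 ± 0.25 (SE, adjusted p = 0.00928) was not called by DESeq2 (adjusted p = 0.369), with the stricter gate (adjusted p = 0.0866) or without the block (adjusted p = 0.055), and it was 1.54 with doublets removed. Striatal-neuron-like cells (136 and 184 CPM) were lower than MGE-interneuron-like cells, at -1.26 ± 0.24 (SE, adjusted p = 0.000241), which DESeq2 did not call (adjusted p = 0.0982). *Unc5d* ranked 8 among the genes most enriched in migrating-neuron-like cells relative to all other classes.

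*Unc5c*, the paralogue with a part in axon repulsion, took the opposite course from migrating-neuron-like to upper-layer-like cells. It stood at 19.9 and 24.9 CPM in radial glia-like, 26.7 and 29.3 CPM in IPC-like and 42.8 and 55.2 CPM in migrating-neuron-like cells, and at 199.7 and 214 CPM in upper-layer-like cells. Both upper-layer-like values were above all values of the earlier stages. The log2 fold change from migrating-neuron-like to upper-layer-like cells was 2.07 ± 0.18 (SE, adjusted p = 2.72e-10), and the step before it from IPC-like cells was 0.87 ± 0.23 (SE, adjusted p = 0.00423), which DESeq2 did not call (adjusted p = 0.0753). Layer-5-like cells (11.5 and 38.1 CPM) and layer-6-like cells (33.2 and 57.4 CPM) overlapped in their values, and their difference did not pass the test (-0.68, 95% interval -1.45 to 0.10, adjusted p = 0.336), except in the fit with only the compared classes (-0.83, adjusted p = 0.0156). Upper-layer-like cells exceeded layer-6-like cells by a log2 fold change of 2.26 ± 0.23 (SE, adjusted p = 1.92e-09). Among GABAergic cells, *Unc5c* reached 158 and 196 CPM in MGE-interneuron-like cells and 139 and 109.9 CPM in CGE-interneuron-like cells, but 16.6 and 19.9 CPM in striatal-neuron-like and 19.6 and 17.3 CPM in cycling GABAergic-cell-like cells. The striatal-neuron-like cells were lower than the MGE-interneuron-like cells, at -3.26 ± 0.23 (SE, adjusted p = 2.08e-13) on the log2 scale, and the MGE-interneuron-like cells were higher than the mean of the layers by 1.46 ± 0.16 (SE, adjusted p = 2.93e-09). The MGE-interneuron-like values were above those of layer-5-like and layer-6-like cells but below both upper-layer-like values. The difference between MGE- and CGE-interneuron-like cells missed the threshold (0.53, 95% interval 0.14 to 0.91, adjusted p = 0.0768). With the stricter gate, under which the CGE-interneuron-like mean went from 124 to 65.7 CPM, it was 1.42 with an adjusted p of 5.04e-05. It was also called with doublets removed (adjusted p = 0.0435), with no count filter (adjusted p = 0.00378) and with only the compared classes (adjusted p = 0.0106). Fibroblast-like cells held 54 and 109 CPM, above all erythroid- and microglia-like values.

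*Dcc*, the netrin-1 receptor gene, was highest in striatal-neuron-like cells (3639.8 and 3334 CPM) among the 15 classes, followed by IPC-like cells (3286 and 2551 CPM) and migrating-neuron-like cells (2279 and 1616 CPM). Radial glia-like cells held 244 and 184 CPM, which lay within the erythroid-like range of 141 and 349 CPM. The log2 fold change from radial glia-like to IPC-like cells was 3.83 ± 0.26 (SE, adjusted p = 5.45e-14), the largest of the 9 genes in that comparison. After the IPC-like class the *Dcc* level was lower at each step in both libraries, at 2279 and 1616 CPM and then 1348 and 1227 CPM in upper-layer-like cells, but neither step passed the test (-0.53, 95% interval -1.01 to -0.04, adjusted p = 0.0905 from IPC-like to migrating-neuron-like cells, and -0.60, 95% interval -1.08 to -0.11, adjusted p = 0.131 from there to upper-layer-like cells). Of the 8 alternative fits, 4 called the first of these steps and 3 the second. Layer-5-like cells (1290.3 and 1592 CPM) overlapped with upper-layer-like cells, and layer-6-like cells (884 and 749 CPM) were lower than both. The log2 fold changes against layer-6-like cells were 0.71 ± 0.24 (SE, adjusted p = 0.0362) for upper-layer-like and 0.89 ± 0.25 (SE, adjusted p = 0.0226) for layer-5-like cells, and both calls were lost with DESeq2 (adjusted p = 0.484 and 0.36) and without the library block (adjusted p = 0.111 and 0.0908). The first was also lost without TMM factors (adjusted p = 0.0626). Among GABAergic classes, MGE-interneuron-like cells held 831 and 664 CPM and striatal-neuron-like cells were higher by a log2 fold change of 2.24 ± 0.24 (SE, adjusted p = 4.91e-09). MGE-interneuron-like cells were lower than the layer mean, at -0.66 ± 0.20 (SE, adjusted p = 0.0114), and this call too was lost with DESeq2 (adjusted p = 0.215) and without the block (adjusted p = 0.0527). Their values overlapped with those of layer-6-like cells. In CGE-interneuron-like cells the libraries gave 1252 and 725 CPM, the widest ratio between libraries for *Dcc* among the neuronal classes tested, and the difference from MGE-interneuron-like cells did not pass (-0.39, 95% interval -0.90 to 0.12, adjusted p = 0.455). It was called with no count filter (adjusted p = 0.0345) and with only the compared classes (adjusted p = 0.0112). After thinning, a *Dcc* UMI was found in 83% (78.9 to 86.6) and 76.3% (72.7 to 79.7) of IPC-like cells, 67.8% (62.7 to 72.6) and 65.5% (61.4 to 69.6) of striatal-neuron-like cells and 15.4% (11.1 to 20.6) and 15.2% (11.8 to 19.1) of radial glia-like cells. Without thinning the shares were 94.6% and 93.3%, 75.9% and 76.2% and 35.8% and 30.6%.

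*Unc5b*, known for its part in blood vessels, was highest in vascular cells among the 15 classes. Mural-like cells held 68.7 and 58.6 CPM from 29 and 33 UMIs, and endothelial-like cells 35.7 and 54 CPM from 19 and 62 UMIs. Among these classes, the next highest values were 6.0 CPM in replicate 2 of migrating-neuron-like cells and 6.0 CPM in replicate 2 of CGE-interneuron-like cells, and the erythroid-like cells held no UMI, which allows up to 9.61 and 5.37 CPM. Between neuronal classes *Unc5b* passed in none of the 8 comparisons, with the SE of its log2 fold change between 0.69 and 1.45. The adjusted p-values lay between 0.177 and 0.917. Of the alternative fits, the one with only the compared classes called *Unc5b* lower in upper-layer-like than in migrating-neuron-like cells (-1.58, adjusted p = 0.0329).

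**Figure D3:**
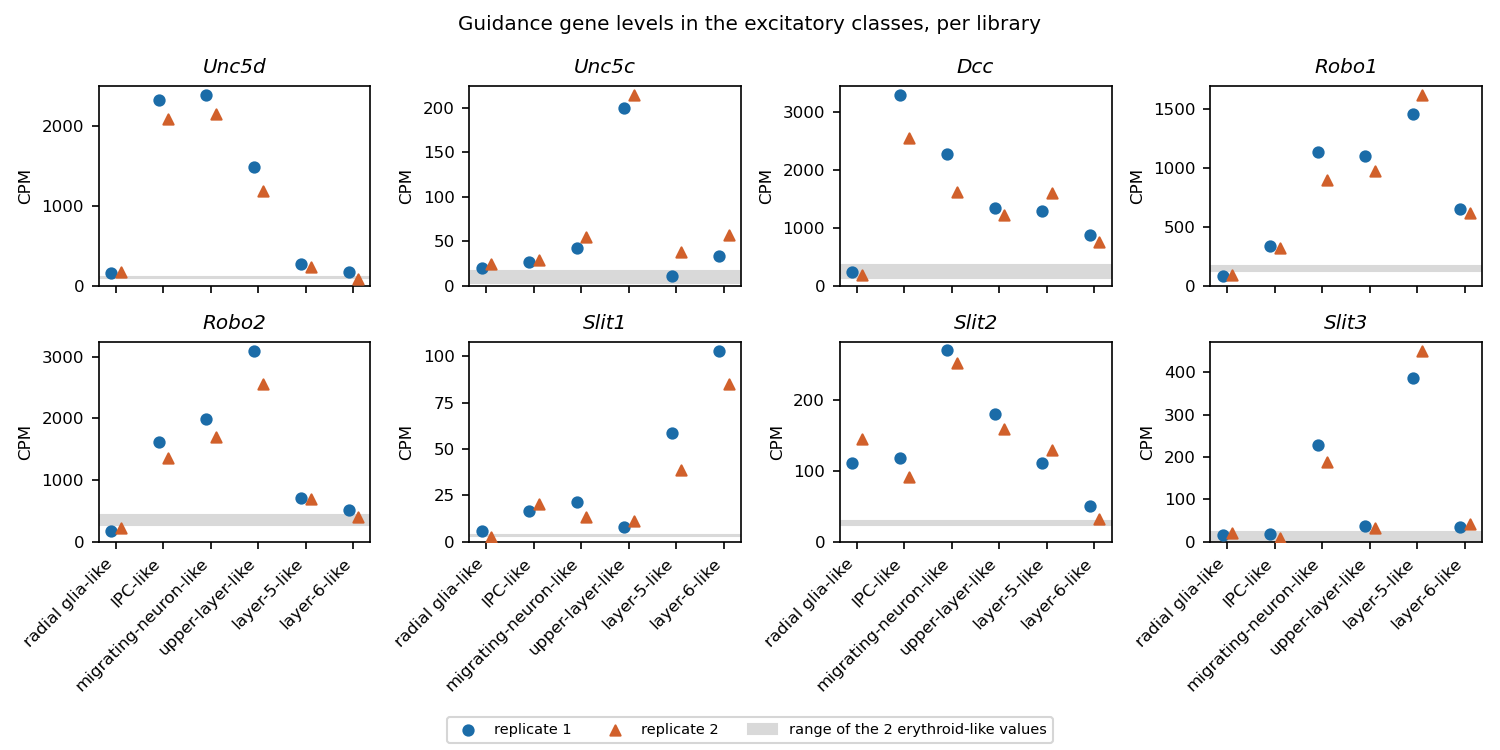
Levels (CPM, linear axes from 0) of 8 of the genes in the 6 excitatory classes, circles for replicate 1 and triangles for replicate 2. The grey band spans both erythroid-like values of the same gene. For *Unc5d*, *Dcc* and *Robo2* the IPC-like points lie far above the band and the radial glia-like points just above, inside and below it, *Unc5c* is highest in upper-layer-like cells, and *Slit3* is high in migrating-neuron-like and layer-5-like cells.

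*Robo2* was highest in upper-layer-like cells. It stood at 173 and 212 CPM in radial glia-like, 1614 and 1363 CPM in IPC-like, 1982 and 1703 CPM in migrating-neuron-like and 3098 and 2565 CPM in upper-layer-like cells. The upper-layer-like values were above all others. The radial glia-like values were below both erythroid-like values (429 and 276 CPM), but above the erythroid-like mean of 27.4 CPM with the stricter gate and the microglia-like mean of 47.2 CPM without the cells of highest doublet score. The log2 fold change from radial glia-like to IPC-like cells was 2.99 ± 0.22 (SE, adjusted p = 5.43e-13). The steps to migrating-neuron-like cells (0.37, 95% interval -0.06 to 0.79, adjusted p = 0.198) and on to upper-layer-like cells (0.61, 95% interval 0.19 to 1.03, adjusted p = 0.0554) did not pass. The first passed in 3 of the 8 alternative fits and the second in 5, both among them without the cells of high doublet score (0.52, adjusted p = 0.00577, and 0.65, adjusted p = 0.00161). The deep layers were low in *Robo2*, with 708 and 687 CPM in layer-5-like and 514 and 398 CPM in layer-6-like cells. Upper-layer-like cells exceeded layer-6-like cells by a log2 fold change of 2.69 ± 0.22 (SE, adjusted p = 1.67e-11). The difference between layer-5-like and layer-6-like cells did not pass (0.67, 95% interval 0.18 to 1.17, adjusted p = 0.0788), and 3 of the 8 alternative fits called it, among them the one with doublets removed (0.80, adjusted p = 0.00164). In layer-6-like cells 3.33 and 2.43 UMIs were counted per cell, against the 2.06 and 1.52 of erythroid-like cells. On the GABAergic side *Robo2* was highest in striatal-neuron-like cells (1613 and 1706 CPM), which exceeded MGE-interneuron-like cells (679.8 and 588 CPM) by a log2 fold change of 1.41 ± 0.20 (SE, adjusted p = 2.68e-06). The CGE-interneuron-like cells (893 and 749 CPM) were higher than the MGE-interneuron-like ones in both libraries, and the difference did not pass (-0.37, 95% interval -0.82 to 0.07, adjusted p = 0.402) except in the fit with only the compared classes (-0.39, adjusted p = 0.00147). Against the layer mean, MGE-interneuron-like cells were lower, at -0.63 ± 0.18 (SE, adjusted p = 0.00558), which DESeq2 did not call (adjusted p = 0.191). Their values were below those of upper-layer-like and layer-5-like cells but above those of layer-6-like cells. The share of cells with a *Robo2* UMI after thinning was 90.6% (88.7 to 92.2) and 86.8% (85.2 to 88.3) in upper-layer-like and 31.9% (24.4 to 40.2) and 24.8% (17.8 to 32.9) in layer-6-like cells, and 97.8% and 96.3% and 54.9% and 44.5% without thinning.

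*Robo1* followed another order. Striatal-neuron-like cells were highest (2901 and 3160.4 CPM), then layer-5-like cells (1461 and 1621 CPM), and then upper-layer-like and migrating-neuron-like cells (1102 and 972 CPM, and 1136 and 895 CPM), whose values overlapped. Radial glia-like cells were the lowest of the 15 classes at 85.9 and 90.7 CPM. *Robo1* rose from radial glia-like to IPC-like cells (335 and 317 CPM) by a log2 fold change of 1.94 ± 0.17 (SE, adjusted p = 2.12e-11) and again to migrating-neuron-like cells by 1.70 ± 0.15 (SE, adjusted p = 5.15e-11). The size of each step moved with the cells included. Without the cells of highest doublet score, which were 10% and 12.8% of the IPC-like cells, the IPC-like mean went from 326 to 198 CPM and the steps were 1.31 and 2.33. From migrating-neuron-like to upper-layer-like cells no change was detected (0.02, 95% interval -0.27 to 0.32, adjusted p = 0.968). The layer-6-like level of *Robo1* was 655 and 616 CPM. Upper-layer-like cells exceeded it by 0.76 ± 0.15 (SE, adjusted p = 0.000252) and layer-5-like cells by 1.34 ± 0.15 (SE, adjusted p = 1.31e-07) on the log2 scale. MGE-interneuron-like cells (654 and 466 CPM) were lower than the layer mean, at -0.88 ± 0.12 (SE, adjusted p = 6.39e-07), but their values overlapped with those of layer-6-like cells. The striatal-neuron-like cells exceeded the MGE-interneuron-like cells by 2.46 ± 0.15 (SE, adjusted p = 3.29e-15). Outside the neurons, fibroblast-like cells held 641 and 669.8 CPM, above the 125 and 165 CPM of erythroid-like cells. Their mean was 519 CPM without the cells of highest doublet score, which were 14.3% and 45.8% of that class. After thinning, a *Robo1* UMI was found in 74.8% (70 to 79.2) and 77.5% (73.7 to 80.9) of striatal-neuron-like cells, 61.6% (51.3 to 71.2) and 66.5% (59.2 to 73.2) of layer-5-like cells and 47.6% (32 to 63.6) and 46.6% (37.4 to 56) of fibroblast-like cells. Without thinning the shares were 82.1% and 86%, 79.8% and 81.6% and 97.6% and 86.4%.

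*Robo3* was barely detected. All kept cells together held 29 UMIs in replicate 1 and 49 in replicate 2. No UMI was found in migrating-neuron-like, layer-5-like or layer-6-like cells, which in migrating-neuron-like cells allows a level of up to 1.43 and 1.13 CPM, the value of 3 UMIs. Upper-layer-like cells held 2 and 0 UMIs. Cycling GABAergic-cell-like cells held 6 and 6 UMIs, which is 3.46 and 2.21 CPM, and CGE-interneuron-like cells held 4 and 1 UMIs.

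The Slit ligand genes were each highest in another class. *Slit1* was highest in CGE-interneuron-like cells (159 and 137 CPM), followed by layer-6-like cells (103 and 84.9 CPM) and cycling GABAergic-cell-like cells (88.7 and 87.5 CPM), whose values overlapped, and by layer-5-like cells (58.6 and 38.8 CPM). Radial glia-like cells held 5.54 and 2.56 CPM, upper-layer-like cells 8.0 and 10.9 CPM and erythroid-like cells 3.2 and 3.58 CPM. The log2 fold change between MGE- and CGE-interneuron-like cells was -2.17 ± 0.16 (SE, adjusted p = 2.52e-12), so the CGE-interneuron-like cells were higher. Upper-layer-like cells were lower than layer-6-like cells, at -3.21 ± 0.20 (SE, adjusted p = 7.89e-15), and layer-5-like cells were lower than layer-6-like cells, at -0.95 ± 0.21 (SE, adjusted p = 0.00353). Radial glia-like and IPC-like cells differed by 2.30 ± 0.32 (SE, adjusted p = 5.43e-07), but from 12 and 7 UMIs in radial glia-like cells, and the single libraries gave 1.59 and 2.94. The decrease from migrating-neuron-like to upper-layer-like cells, -0.80 ± 0.23 (SE, adjusted p = 0.0254), was likewise uneven between libraries, at -1.40 and -0.27, and was not called with the stricter gate (adjusted p = 0.0685). A *Slit1* UMI was found in 22.6% (17.5 to 28.3) and 19.3% (15.4 to 23.8) of CGE-interneuron-like cells after thinning, in 14.6% (9.26 to 21.4) and 16.8% (11 to 24.1) of layer-6-like cells and in 1.57% (0.933 to 2.47) and 1.76% (1.23 to 2.43) of upper-layer-like cells. Without thinning the shares were 42.3% and 39%, 43.1% and 38% and 4.89% and 5.77%.

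*Slit2* was highest in migrating-neuron-like cells (269.7 and 252 CPM) and next in upper-layer-like cells (181 and 159 CPM), and the values of these classes did not overlap. Replicate 1 of fibroblast-like cells (169 CPM) lay between the upper-layer-like values. Radial glia-like cells (111 and 145 CPM) and IPC-like cells (118 and 91.7 CPM) overlapped and did not differ detectably (-0.26, 95% interval -0.62 to 0.11, adjusted p = 0.259). *Slit2* rose to migrating-neuron-like cells by a log2 fold change of 1.38 ± 0.16 (SE, adjusted p = 3.39e-08) and was lower in upper-layer-like cells, at -0.63 ± 0.15 (SE, adjusted p = 0.0049), a call that DESeq2 did not make (adjusted p = 0.309). Layer-6-like cells were low (50.4 and 31.1 CPM). Upper-layer-like cells exceeded them by 2.10 ± 0.25 (SE, adjusted p = 3.63e-08) and layer-5-like cells (110.3 and 129 CPM) by 1.63 ± 0.29 (SE, adjusted p = 0.000196) on the log2 scale. All 4 GABAergic classes lay between 34.6 and 52.7 CPM in the mean of both libraries, against 28.8 and 23.3 CPM in erythroid-like and 50.1 and 35.9 CPM in microglia-like cells. MGE-interneuron-like cells were lower than the layer mean, at -1.49 ± 0.20 (SE, adjusted p = 3.08e-07), but their values (39.1 and 30.1 CPM) overlapped with those of layer-6-like cells. Fibroblast-like cells held 169 and 77.3 CPM.

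*Slit3* was high in 3 classes, namely layer-5-like (387 and 449.97 CPM), striatal-neuron-like (312 and 287 CPM) and migrating-neuron-like cells (227 and 189 CPM). In the other 12 classes no value exceeded 40.7 CPM. The log2 fold change from IPC-like (17.7 and 7.16 CPM) to migrating-neuron-like cells was 4.16 ± 0.25 (SE, adjusted p = 1.47e-14), the largest of the 9 genes in that comparison, and the upper-layer-like cells (37.5 and 31.8 CPM) were lower again, at -2.60 ± 0.19 (SE, adjusted p = 4.6e-12). Layer-5-like cells exceeded layer-6-like cells (35.4 and 40.7 CPM) by 3.54 ± 0.27 (SE, adjusted p = 4.32e-11), and by 4.28 without the cells of highest doublet score. Striatal-neuron-like cells exceeded MGE-interneuron-like cells (36.7 and 26.9 CPM) by 3.27 ± 0.22 (SE, adjusted p = 6.26e-14), and by 2.63 with the stricter gate, under which their mean was 198 CPM. Against the layer mean, MGE-interneuron-like cells were lower, at -1.41 ± 0.23 (SE, adjusted p = 7.47e-06). Their values lay below those of layer-5-like cells but overlapped with those of upper-layer-like and layer-6-like cells. After thinning, a *Slit3* UMI was found in 29.3% (20.6 to 39.3) and 22.7% (16.9 to 29.4) of layer-5-like, 12.9% (9.59 to 16.8) and 15.6% (12.7 to 19) of striatal-neuron-like and 10.1% (6.74 to 14.3) and 8.57% (6.19 to 11.5) of migrating-neuron-like cells, and the shares without thinning were 32.3% and 31.4%, 18.8% and 19% and 19% and 15.6%. In erythroid-like cells the shares were 0% (0 to 5.52) and 1.98% (0.241 to 6.97) with thinning and 0% and 1.98% without. A cell with no UMI may still express the gene.

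The cells with a *Slit3* UMI were described beside the rest of their class. For this, a second draw of 1500 UMIs per cell was taken, and shares of cells were set side by side for cells with and without a *Slit3* UMI, with no test. Among migrating-neuron-like cells, 29 and 43 cells had a *Slit3* UMI. Of these, 13.8% (3.89 to 31.7) and 23.3% (11.8 to 38.6) had a *Robo2* UMI, against 79.9% and 77.6% of the 239 and 424 cells without *Slit3*. For *Unc5d* the shares were 27.6% (12.7 to 47.2) and 20.9% (10 to 36) with and 74.5% and 72.9% without *Slit3*. In both libraries *Robo2* and *Unc5d* were less frequent in the cells with *Slit3*. *Robo1* (62.1% and 48.8% against 55.6% and 47.4%) and *Dcc* (82.8% and 65.1% against 63.6% and 59.4%) were as frequent or more frequent in them. A UMI of the transcription factor gene *Pou3f2* was found in 3.45% (0.0873 to 17.8) and 0% (0 to 8.22) of the cells with *Slit3* and 39.3% and 34.9% of those without it. *Nr2f2*, which codes for the transcription factor COUP-TFII, went the other way, with 44.8% and 48.8% against 10.5% and 11.8%. The median depth of the cells with *Slit3* was 10148 and 6658 UMIs against 7063 and 5244, and 10.3 and 11.6% of them were among the highest doublet scores against 4.18 and 4.25%. Without the cells of highest doublet score the *Slit3* level of the class was 202 CPM, against 208 CPM with them. The part of doublets and depth in these shares was not tested.

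In layer-5-like cells the picture was alike for *Robo2*, which was found in 4.17% (0.105 to 21.1) and 13.5% (4.54 to 28.8) of the 24 and 37 cells with *Slit3* and 53.3% and 45.3% of the 75 and 148 cells without it. *Robo1* was also less frequent with *Slit3* (33.3% (15.6 to 55.3) and 43.2% (27.1 to 60.5) against 78.7% and 67.6%), whereas *Dcc* was more frequent (75% (53.3 to 90.2) and 75.7% (58.8 to 88.2) against 49.3% and 52%). *Unc5d* did not separate them (29.2% and 16.2% against 22.7% and 16.2%). Among the genes with the widest gaps, *Nrp2*, a semaphorin receptor gene, was found in 45.8% and 56.8% of the cells with *Slit3* and 8.0% and 6.76% of those without, *Nr2f2* in 37.5% and 48.6% and 9.33% and 9.46%, and *Id2* in 16.7% and 16.2% and 66.7% and 63.5%. In striatal-neuron-like cells *Slit3* went together with *Unc5d*. Of the 50 and 72 cells with *Slit3*, 40% (26.4 to 54.8) and 47.2% (35.3 to 59.3) held *Unc5d*, against 4.89% and 6.24% of the 307 and 465 cells without it. *Dcc* was less frequent in them (46% (31.8 to 60.7) and 36.1% (25.1 to 48.3) against 68.4% and 70.8%), and *Robo1* (66% and 76.4% against 72.3% and 77%) and *Robo2* (52% and 59.7% against 58% and 57%) were about as frequent. The striatal markers *Ebf1* (4.0% and 9.72% against 51.5% and 46.5%) and *Isl1* (14% and 11.1% against 42.7% and 47.5%) were rarer with *Slit3*, and the adhesion receptor gene *Ptprm* was more frequent (74% and 87.5% against 17.3% and 16.6%). High doublet scores were given to 2.0 and 2.78% of the striatal-neuron-like cells with *Slit3* and 3.91 and 4.09% of those without, and in layer-5-like cells to 0 and 5.41% and 4.0 and 6.76%.

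Within upper-layer-like cells, *Unc5d* was less frequent in cells that held *Unc5c*. *Unc5d* was found in 30.9% (24.5 to 37.9) and 24.3% (19.9 to 29.1) of the 194 and 358 cells with *Unc5c* and in 60.1% (56.9 to 63.2) and 54.2% (51.8 to 56.7) of the 952 and 1636 cells without it. *Meis2* showed a gap of like width (39.2% and 43% against 72% and 67.2%). *Robo2* (87.1% and 88.3% against 90.4% and 87.3%), *Robo1* (58.2% and 61.5% against 62.1% and 57.8%) and *Dcc* (59.8% and 59.8% against 59.8% and 56.3%) were about as frequent in either kind of cell. Cells with *Unc5c* more often held *Mef2c*, a transcription factor gene of maturing neurons (78.4% and 79.9% against 45.6% and 51%), and *Syt1*, which codes for the synaptic calcium sensor synaptotagmin 1 (52.1% and 52.5% against 31.7% and 29.8%). They less often held *Igfbpl1*, a marker of the migrating-neuron list (62.4% and 63.1% against 82.2% and 79.5%), and *Nfib* (66% and 64% against 87.1% and 83%). The median depths were 6702 and 6449 and 7259 and 5854 UMIs. In MGE-interneuron-like cells the gap between cells with and without *Unc5c* was small for *Unc5d* (17.6% (10.2 to 27.4) and 15.7% (9.97 to 23) against 25.2% and 20.8%). Among CGE-interneuron-like cells, those with *Slit1* more often held *Npas3* (84.3% and 82.4% against 60.4% and 60.1%) and *Zfp536* (74.5% and 67.6% against 49.2% and 45.4%). The shares with *Dcc* were 11.8% (4.44 to 23.9) and 18.9% (10.7 to 29.7) with and 29.9% (23.6 to 36.9) and 25.3% (20.4 to 30.6) without *Slit1*, and their intervals overlapped in both libraries. Among layer-6-like cells, the 54 and 45 with *Robo1* held *Robo2* in 38.9% and 40%, against 22.2% and 19.6% of the 90 and 92 without it, and the layer-6 marker *Tle4* in 66.7% and 55.6% against 88.9% and 82.6%. The intervals for *Robo2* overlapped in both libraries. High doublet scores were given to 5.56 and 8.89% of the cells with *Robo1* and 2.22 and 4.35% of those without. These pairs of a gene and a class, 8 with that of *Slit2* in radial glia-like cells, were chosen after the levels had been seen, and the cells of a library are not independent samples.

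**Figure D4:**
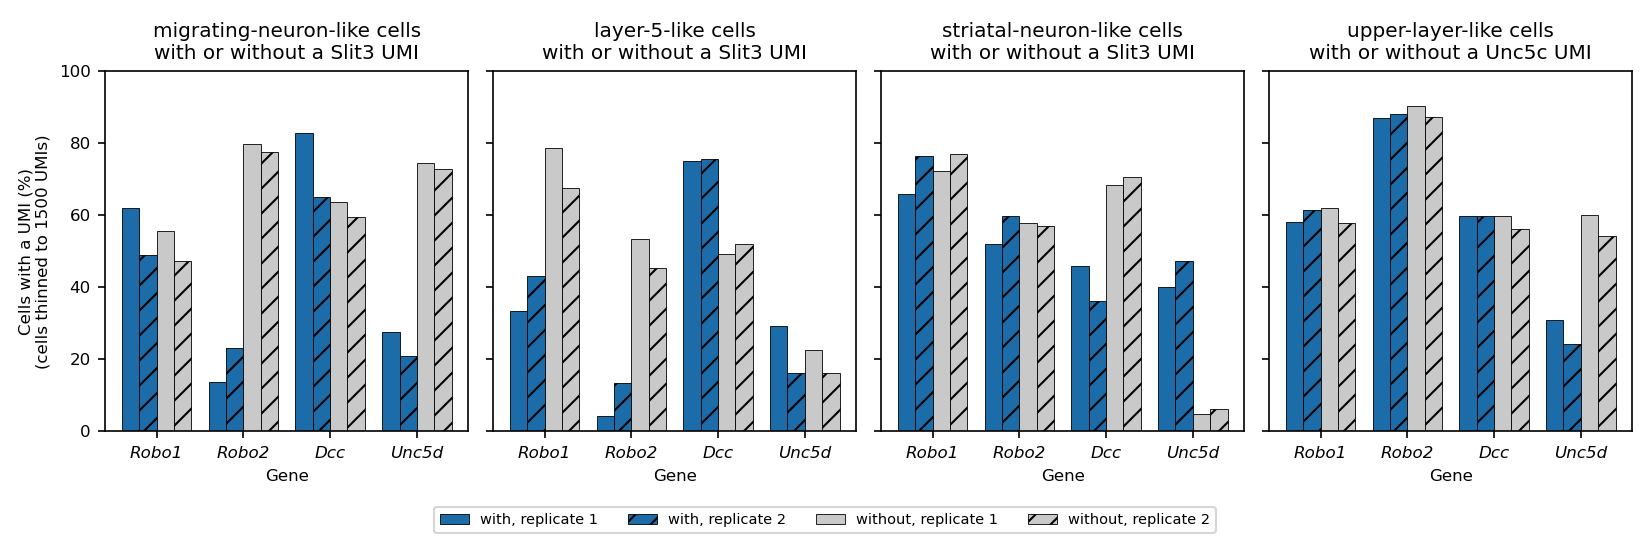
Share of cells with a UMI (y axis, %, every cell thinned to 1500 UMIs) of *Robo1*, *Robo2*, *Dcc* and *Unc5d*, in cells with (blue) or without (grey) a UMI of *Slit3* or *Unc5c* within 4 classes. Plain bars are replicate 1 and hatched bars replicate 2. In migrating-neuron-like cells the blue *Robo2* and *Unc5d* bars stay under 30%, while the grey ones are above 70%.

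The wider pathway was followed with 36 further genes (11 other ligands, 7 other receptors and 18 intracellular partners), of which 35 could be tested. From radial glia-like to IPC-like cells, 24 of the 35 pathway genes tested passed (37.6% of all genes), 16 higher and 8 lower, with a median log2 fold change of 0.27. *Ntn1*, which codes for netrin-1, stood at 49.4 and 51.6 CPM in radial glia-like and 3.37 and 1.85 CPM in IPC-like cells, and its log2 fold change was -4.24 ± 0.34 (SE, adjusted p = 2.56e-12). *Dcc* and *Unc5d* rose in the same comparison. *Rgma*, a ligand of the DCC relative neogenin, was also lower (-2.65 ± 0.17 (SE, adjusted p = 6.08e-15)), and the adhesion ligand *Flrt1* (3.83 ± 0.46 (SE, adjusted p = 2.75e-08)) and the netrin receptor *Unc5a* (2.84 ± 0.46 (SE, adjusted p = 6.22e-06)) were higher. The libraries gave 4.31 and 2.10 for *Unc5a*. From IPC-like to migrating-neuron-like cells, 19 of the 35 pathway genes tested passed (24.3% of all genes), 15 higher and 4 lower, with a median log2 fold change of 0.28. *Flrt2* (1.84 ± 0.19 (SE, adjusted p = 1.94e-09)) and *Flrt3* (1.78 ± 0.20 (SE, adjusted p = 1.79e-08)), whose products bind UNC5 receptors, were higher. The guanine nucleotide exchange factor gene *Dock1* (-3.38 ± 0.26 (SE, adjusted p = 4.82e-12)) and the netrin gene *Ntn4* (-2.43 ± 0.36 (SE, adjusted p = 2.33e-06)) were lower. From migrating-neuron-like to upper-layer-like cells, 9 of the 35 pathway genes tested passed (6.71% of all genes), 7 higher and 2 lower, with a median log2 fold change of 0.16. *Flrt3* was higher again (1.07 ± 0.15 (SE, adjusted p = 2.44e-06)), as was *Ablim1*, which codes for an actin-binding protein (1.93 ± 0.17 (SE, adjusted p = 3.19e-10)), and the adhesion receptor gene *Dscaml1* (-0.93 ± 0.14 (SE, adjusted p = 1.16e-05)) and the adaptor gene *Nck1* (-1.01 ± 0.23 (SE, adjusted p = 0.00334)) were lower.

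Between upper-layer-like and layer-6-like cells, 12 of the 35 pathway genes tested passed (16.8% of all genes), 4 higher and 8 lower, with a median log2 fold change of -0.14. *Flrt3* was higher in the upper layers (1.87 ± 0.22 (SE, adjusted p = 2.83e-08)), and *Nck1* (-2.0 ± 0.27 (SE, adjusted p = 4.87e-07)), *Ntn4* (-1.88 ± 0.51 (SE, adjusted p = 0.00812)) and *Rgma* (-1.73 ± 0.19 (SE, adjusted p = 7.96e-09)) were higher in layer 6, with library values of -1.15 and -2.47 for *Ntn4*. Between layer-5-like and layer-6-like cells, 8 of the 35 pathway genes tested passed (6.37% of all genes), 3 higher and 5 lower, with a median log2 fold change of -0.12. *Neo1*, the neogenin gene (1.08 ± 0.17 (SE, adjusted p = 5.16e-05)), and *Flrt3* (1.11 ± 0.27 (SE, adjusted p = 0.00801)) were higher in layer-5-like cells. *Dscam*, whose product also binds netrin-1 (-0.93 ± 0.21 (SE, adjusted p = 0.00299)), and *Dscaml1* (-0.86 ± 0.19 (SE, adjusted p = 0.00363)) were lower. Between MGE-interneuron-like cells and the layer mean, 21 of the 35 pathway genes tested passed (28.2% of all genes), 9 higher and 12 lower, with a median log2 fold change of 0.03. *Dscaml1* (2.43 ± 0.11 (SE, adjusted p = 2.02e-19)) and *Ntn4* (2.29 ± 0.29 (SE, adjusted p = 1.22e-07)) were higher in MGE-interneuron-like cells, and *Ablim1* (-3.23 ± 0.17 (SE, adjusted p = 2.04e-17)) and *Dscam* (-2.51 ± 0.18 (SE, adjusted p = 1.97e-13)) were lower. Where MGE-interneuron-like cells were set against their CGE counterparts, 5 of the 35 pathway genes tested passed (6.33% of all genes), 2 higher and 3 lower, with a median log2 fold change of 0.09. *Ntn1* was higher in MGE-interneuron-like cells (2.17 ± 0.50 (SE, adjusted p = 0.00377)), with library values of 3.34 and 1.33, as was *Rgmb* (0.54 ± 0.14 (SE, adjusted p = 0.0132)), and *Dscam* (-0.88 ± 0.24 (SE, adjusted p = 0.0167)) and *Draxin* (-0.70 ± 0.19 (SE, adjusted p = 0.0154)) were lower. The libraries gave -0.39 and -1.35 for *Dscam*. Between striatal-neuron-like and MGE-interneuron-like cells, 13 of the 35 pathway genes tested passed (11.9% of all genes), 10 higher and 3 lower, with a median log2 fold change of -0.0018. *Ntn1* (2.0 ± 0.27 (SE, adjusted p = 6.33e-07)) and *Dscam* (1.73 ± 0.21 (SE, adjusted p = 8.11e-08)) were higher in striatal-neuron-like cells together with the receptor gene *Dcc*, as was *Ablim1* (1.56 ± 0.22 (SE, adjusted p = 1.21e-06)), and *Ntn4* was lower (-2.67 ± 0.40 (SE, adjusted p = 4.46e-06)).

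Across the 15 classes, the pattern of each gene was set beside that of 12775 other genes by Pearson's correlation of log2(CPM + 1), mean of both libraries. The classes share their libraries, and the values are descriptions. The genes closest to *Dcc* were *Lrrn3* (r = 0.95), *Sox4* (r = 0.92), *Tsg101* (r = 0.90), those closest to *Unc5d* *A930024E05Rik* (r = 0.89), *Sema3c* (r = 0.88), *Rnd2* (r = 0.86), and those closest to *Unc5c* *Zfp9* (r = 0.77), *2700054A10Rik* (r = 0.75), *Nanos1* (r = 0.74). *Unc5b* was closest to *Sept4* (r = 0.95), *Bcam* (r = 0.93), *Igfbp7* (r = 0.93). *Robo1* was closest to *Grm7* (r = 0.94), *Chd3* (r = 0.91), *Fstl4* (r = 0.89), and *Robo2* to *Igfbpl1* (r = 0.93), *Hist3h2ba* (r = 0.89), *Ccser1* (r = 0.89). *Rnd2* and *Igfbpl1* were markers of the migrating-neuron list, so the gate partly set their pattern over the classes. Of the ligands, *Slit1* had among its 3 closest genes *Dlgap3* (r = 0.88), *Nol4* (r = 0.87). *Slit2* was closest to *Neo1* (r = 0.85), *1700096K18Rik* (r = 0.82), *Sema3c* (r = 0.81), and *Slit3* to *Sdr39u1* (r = 0.86), *Islr2* (r = 0.84), *Lingo2* (r = 0.83). *Sema3c*, a semaphorin ligand gene, thus stood among the closest genes of both *Slit2* and *Unc5d*. Among the 9 genes themselves, the closest pairs were *Robo2* with *Dcc* (r = 0.85) and *Slit3* with *Robo1* (r = 0.80), and *Unc5b* was below 0 with each of the other 8, the lowest being *Robo2* (r = -0.48).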

How the data were processed

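The data were 2 WT libraries of single cells from E16.5 mouse cerebral cortex. The authors deposited raw UMI counts for each gene in each barcode that Cell Ranger had kept as a cell, with no normalization. The submitters' processing notes name Cell Ranger 7.0.0 and mm10, and the file headers name version 7.1.0. The annotation, and whether intronic reads were counted, are not given in the sources used here. No genome sequence was used.

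Cells with 1500 to 60000 UMIs and under 10% mitochondrial UMIs were kept. Cells holding at least 3 markers of a non-neural list (2 for erythroid cells) were named first. Of the others, radial glia-like cells needed 3 markers and no *Eomes* UMI, and IPC-like cells 2 markers with *Eomes*. Neurons needed at least 3 UMIs of 12 general GABAergic and glutamatergic markers, at least 80% of them of 1 kind, and at least 2 markers of a list, and cells tied between lists stayed unnamed. Cycling GABAergic-cell-like cells held at least 3 cell-cycle markers. The numbers were set on markers and class sizes. Doublets stayed in. As an alternative, the cells with the highest Scrublet score (scanpy 1.11.5) were removed, at 0.8% for every 1000 barcodes, which took out 431 and 1111 cells. The automatic threshold marked 0 and 345.

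Counts were summed per library and class, giving 30 sums over the 15 classes that had 20 or more cells in both libraries. The tool was edgeR 4.0.16 (R 4.3.3, quasi-likelihood test, TMM factors). A gene entered if 2 or more sums held 10 or more counts, and the library was a block, which left 14 residual degrees of freedom. The SE is the log2 fold change divided by the square root of F, the 95% interval uses the t quantile for those degrees of freedom, and a call is an adjusted p under 0.05. Alternatives were a stricter gate (1 more marker), cells with at least 3000 UMIs, removal of doublets, DESeq2 1.42.0, no TMM factors, no count filter, no block, only the compared classes, and each library alone.

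The 10 genes, the 36 pathway genes and the tests were chosen with earlier results of these data known. Named were all 10 genes, for every comparison up to 4 called pathway genes of largest change (10 CPM or more where higher, both libraries moving one way), and the 3 genes most like each gene. Some genes that these rules name are not reported here. Genes set beside one of the 10 genes within a class were taken from the 6 widest gaps in each direction, seen in both libraries, and were chosen after their values were seen.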

Additional observations from a re-analysis of the deposited data

How the results depend on the processing

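Of the 41 called differences, 30 kept their call and direction under all 8 alternative fits, and none changed direction. DESeq2 lost 10 calls, the fit with no replicate block 6, the stricter gate 3, unadjusted library sizes 2 and the limit of 3000 UMIs 1, while removal of doublets, no count filter and fitting only the compared classes lost none. The number of genes called among the 9 moved by over 1.5 times in these cases. With only the compared classes it was 7 instead of 4 from IPC-like to migrating-neuron-like cells, 8 instead of 5 from there to upper-layer-like cells and 5 instead of 2 for MGE- against CGE-interneuron-like cells. Between these interneuron-like classes it was 1 with DESeq2, 1 with no replicate block and 4 with no count filter. DESeq2 called 3 from migrating-neuron-like to upper-layer-like cells. The count over all genes moved that far with only the compared classes, from 1033 to 2197 between upper-layer-like and migrating-neuron-like cells and from 981 to 1607 between layer-5-like and layer-6-like cells. That fit estimates the spread from the sums of those classes instead of all 30.

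Some differences that were not called changed sign, in 9 fits of 7 differences. With cells of at least 3000 UMIs these were *Slit1* from IPC-like to migrating-neuron-like cells (log2 fold change 0.015), *Robo1* for MGE- against CGE-interneuron-like cells (0.0093) and *Slit2* between striatal-neuron-like and MGE-interneuron-like cells (-0.0889). With the stricter gate they were *Slit3* between upper-layer-like and layer-6-like cells (0.12), *Slit2* (0.0912) and *Dcc* (0.21) for MGE- against CGE-interneuron-like cells, and *Slit2* (-0.15) and *Unc5b* (0.36) between striatal-neuron-like and MGE-interneuron-like cells. With doublets removed it was *Slit3* between upper-layer-like and layer-6-like cells (0.54). The cause was not tested. Leaving out a library leaves no residual degrees of freedom, so each library's own ratio was used with no test, and no called value changed sign. Of 150 mean levels, 42 moved by more than the SD of the libraries with doublets removed, 39 with the stricter gate and 9 with cells of at least 3000 UMIs. By Spearman's correlation, 7 of the 9 genes had another closest gene. With 2 libraries, small differences in genes of few UMIs (*Unc5b*, *Robo3*, *Slit1* in progenitors) may go undetected.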

Other observations

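Cells with a *Robo3* UMI were few but unevenly placed. They were examined after the levels had been seen, with no test. In replicate 1, 28 of 5966 kept cells had a *Robo3* UMI and in replicate 2, 44 of 10247, with at most 2 UMIs in a cell. Of these, 71.4% and 79.5% were GABAergic by the general markers, against 32.8% and 30.5% of all kept cells. The gate left 12 of the 28 and 32 of the 44 unnamed.

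Classes with under 20 cells in a library entered no test. Cajal-Retzius-like cells (13 and 29 cells) held 50.9 and 81 CPM of *Unc5b* and 239.9 and 469.9 CPM of *Unc5c*, from 7 and 25 UMIs of *Unc5b* and 33 and 145 UMIs of *Unc5c*. Both values of either gene were above those of all tested neuronal classes, and the mean of *Unc5b* (66 CPM) was above that of mural-like cells (63.7 CPM). Their *Slit3* values were 204 and 0 CPM, all of it in replicate 1. Hippocampal-neuron-like cells (12 and 18 cells) held 8763 and 3551 CPM of *Dcc*, above the striatal-neuron-like value in both libraries, 3675 and 2254 CPM of *Robo1* and 405 and 218 CPM of *Slit3*.

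In radial glia-like cells, those with *Slit2* more often held *Nfix* (51.6% and 50% against 27.3% and 26.3%) and *Rmst* (35.5% and 20.8% against 3.83% and 5.65%), and less often *Ube2s* (9.68% and 12.5% against 38.8% and 37.6%).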
